A study of Homo sapiens with 24 samples.

Results

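ID8 is a small molecule of the indole family, reported as an inhibitor of DYRK family protein kinases and used to sustain the self-renewal of human embryonic stem cells in culture. The response described here is that of SUM159 cells with high aldehyde dehydrogenase activity, given 5 µM ID8 or DMSO, the solvent, for 3 days. SUM159 is a triple-negative human breast cancer line with mesenchymal features. The Aldefluor reagent turns fluorescent where aldehyde dehydrogenases oxidise it, and in breast cancer the bright cells are widely studied as a population enriched for tumour-initiating cells. ALDH1A1 and ALDH1A3, enzymes that oxidise retinaldehyde to retinoic acid, are the usual sources of this activity. The sorting gate was set, per the labels, on cells that had also received DEAB, which blocks the Aldefluor reaction.

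The comparison used 6 of the 24 arrays of the series, chosen by their labels. These were 3 arrays of Aldefluor+ SUM159 cells treated with ID8 and 3 arrays of Aldefluor+ SUM159 cells treated with DMSO, with 1 array of each from experiments 2, 3 and 4. The other arrays, which shared one statistical model with these 6, came from Aldefluor- SUM159 cells of the same experiments and from both fractions of T47D, a luminal oestrogen-receptor-positive line, in experiments 5, 6 and 7. Each array held RNA of cells pooled by sorting from 1 culture set, so fewer cells of a type and less RNA per cell cannot be told apart. Each value is a log2 signal of an Affymetrix whole-transcript array that the authors had adjusted for batch. Tests ran over 22395 genes with a name.

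ALDH1A1 separated the sorted fractions. It stood at 4.96, 5.30 and 5.41 in Aldefluor+ cells with ID8, and at 2.21, 2.36 and 2.02 in Aldefluor- cells with ID8 (experiments 2, 3 and 4). With DMSO it stood at 5.03, 5.17 and 4.84 in Aldefluor+ cells and at 2.45, 1.98 and 2.19 in Aldefluor- cells. All Aldefluor+ arrays were thus above all Aldefluor- arrays of this line. All 12 measured markers of a mesenchymal line had a higher mean in SUM159 than in T47D, and all 16 markers of a luminal line a higher mean in T47D. In the batch-adjusted values these differences between lines were small, from 0.02 for THY1 to 1.17 for PGR in absolute size (median 0.59), so levels are not compared between the lines here. The luminal markers had SUM159 means from 2.44 for ESR1 to 7.01 for XBP1, with PGR at 5.08. Bright and dim below therefore describe the adjusted signal, and presence of the transcript was not tested. Of the markers of other cell types, 7 of 9 for white blood cells, 7 of 8 for endothelial cells and 3 of 3 for red blood cells had means below 2 in both groups. Below 2 is taken here as low adjusted signal, and where background lies in the adjusted values was not tested. The mean of the white blood cell markers ranged from 1.48 to 1.62 with ID8 and from 1.45 to 1.58 with DMSO. For the endothelial markers the range was 1.29 to 1.32 with ID8 and 1.38 to 1.47 with DMSO, and for the red blood cell markers it was 0.80 to 0.93 with ID8 and 0.80 to 0.99 with DMSO.

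The sorted samples held 141000, 298000 and 307000 cells with ID8, against 98000, 96000 and 137000 with DMSO, per the labels. They gave 12.23, 15.03 and 15.57 pg of RNA per cell with ID8 and 12.98, 12.71 and 13.03 pg with DMSO, and the part of these yields in the results was not tested. The DMSO array of experiment 4 had the narrowest spread of the 24 arrays, with an interquartile range of 2.05 over all probe sets, where the others had 2.17 to 2.33. Of the 54 genes called below, 24 passed without it.

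ID8 changed the level of a small set of genes in these cells. By limma with Benjamini-Hochberg adjustment, 54 genes passed an adjusted p of 0.05, which is 0.241% of those tested. Of these, 24 rose (0.107%) and 30 fell (0.134%). All 54 changed in the same direction in each of the 3 experiments, and for all 54 the ID8 and DMSO arrays did not overlap. Over all genes tested, groups without overlap were seen for 18.7%, with all ID8 arrays above in 9.31% and below in 9.37%. The call was close to the threshold for many: 20 had an adjusted p of 0.04 or more and 11 one under 0.01. At an unadjusted p under 0.05 there were 2309 genes (10.3% of those tested), 1092 higher (4.88%) and 1217 lower (5.43%). The count of calls fell to 8, 14 and 21 without the ID8 array of experiment 2, 3 or 4. Without the DMSO array of these experiments it was 4, 24 and 37. Of the 37, 24 were among the 54. A fit without the experiment block called 397. That fit does not allow for the authors' earlier batch adjustment, so it is not read as an unpaired test. The 12 SUM159 arrays alone called 17 genes, 11 of them shared, and the 6 compared arrays alone called 0 by limma, with 1674 at an unadjusted p under 0.05. The smallest called difference was 0.57, the SD of the difference over all genes was 0.26 and their median was -0.01. The called genes were 48 protein-coding genes, 3 long non-coding RNAs, 1 small nucleolar RNA and 2 small RNA loci that the RefSeq table did not list. For 18 of the 54 at least 1 group had a mean below 2, so their fold is not a ratio of transcript numbers.

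Most calls depended on single arrays, as only 3 of the 54 passed whichever of the 6 compared arrays was left out. Without the DMSO array of experiment 2, 4 genes passed by limma. IL1B (limma adjusted p = 0.084), SULT1E1 (0.084), AMTN (0.062) and IQGAP2 (0.088) did not pass there. Listed next are only the calls lost without the DMSO array of experiment 4, which had the narrowest spread, or with another form of the block. Without the DMSO array of experiment 4, 30 of the 54 no longer passed, with adjusted p-values of 0.054 to 0.16 and differences of 0.81 to 1.13 times those with it. These were 13 that rose, namely EDIL3, ELFN1, EMX2, IFFO2, KRT75, LINC01085, NRCAM, OXT, PLA2G4A, SNORA71A, STK38L, TLR2 and TMEM131L. The 17 that fell were AOX1, C19orf33, CABLES1, CCL24, EGR1, FAM8A1, HSPG2, MOXD1, NTN4, PTPN22, RN5S49, RNF11, SMG9, SYNE2, TRAM2, UAP1 and ZNF222. A fit with the experiment as a random block estimated a correlation of -0.319 between arrays of an experiment. The part of the authors' batch adjustment in this negative value was not tested. In that fit limma called 39 of the 54. The other 15 had adjusted p-values of 0.0503 to 0.289: DKK1, EGR1, MYPN and RNU5E-4P, whose values are given beside them, and ADGRE5, AOX1, EMX2, HSPG2, KRT75, LINC01085, NTN4, RN5S49, RNF11, SYNE2 and TMEM131L.

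**Figure D1:**
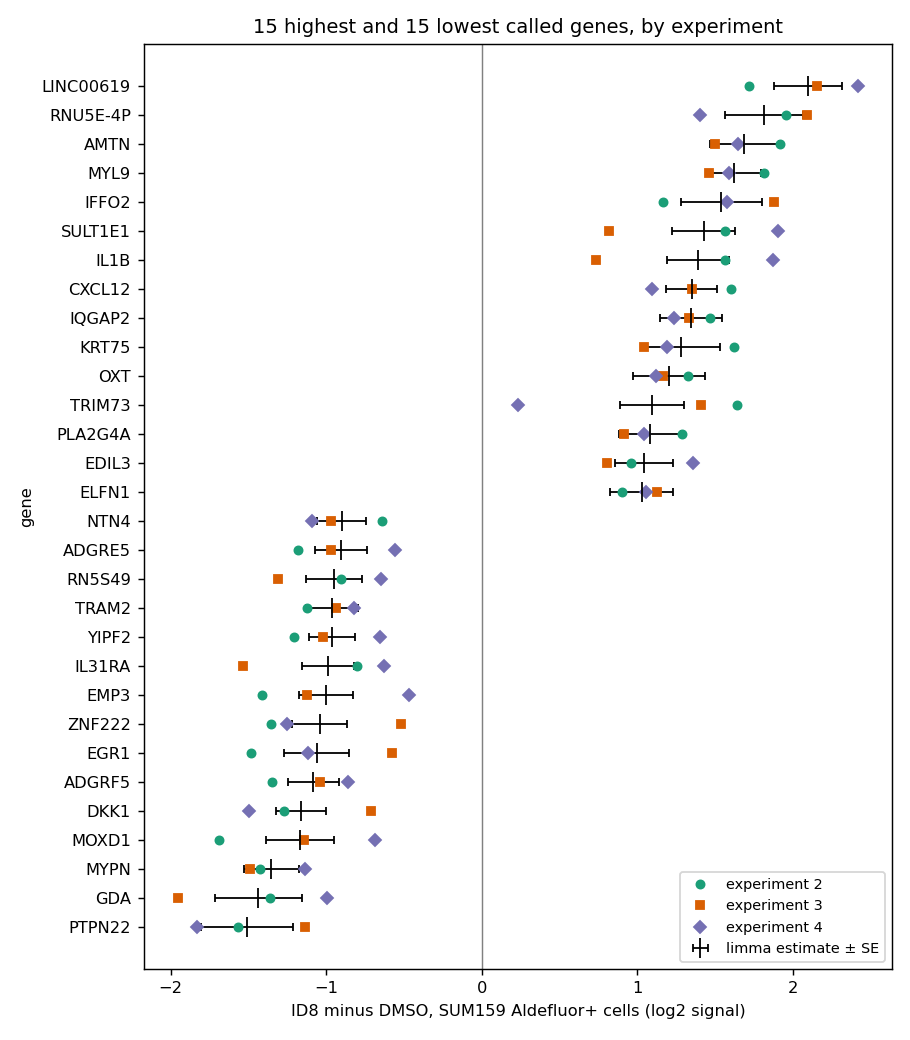
Difference between ID8 and DMSO in SUM159 Aldefluor+ cells (x axis, log2 signal) for the 15 highest and 15 lowest called genes (y axis), with 1 coloured point per experiment and the limma estimate with its SE in black. All points of a gene lie on the same side of 0, and TRIM73 has the point nearest to 0, in experiment 4.

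MYL9 and CXCL12 combined a large difference with a bright batch-adjusted signal in both groups. MYL9, the regulatory light chain of smooth muscle and non-muscle myosin II, stood at 7.36, 7.43 and 7.55 with ID8 and at 5.54, 5.97 and 5.96 with DMSO. The ID8 arrays lay close together and well above the DMSO arrays, a 3.08-fold difference (log2 1.62 ± 0.173 SE, n = 3, limma adjusted p = 0.000778). CXCL12, the chemokine that binds the receptors CXCR4 and ACKR3, stood at 6.12, 6.13 and 6.00 with ID8 and at 4.52, 4.78 and 4.91 with DMSO. It was 2.55-fold higher with ID8, again without overlap (log2 1.35 ± 0.163, limma adjusted p = 0.00274). Its receptors did not pass: ACKR3 differed by -0.13 ± 0.23 and CXCR4 by -0.05 ± 0.277 on the log2 scale (SE). LINC00619, a long non-coding RNA, had the largest called difference, at 4.00, 4.20 and 4.01 with ID8 and 2.28, 2.05 and 1.59 with DMSO (log2 2.10 ± 0.217, limma adjusted p = 0.000778). Its DMSO mean of 1.97 lies in the range of low signal. MYL9, CXCL12 and LINC00619 were the 3 genes that passed whichever of the 6 compared arrays was left out.

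IL1B, TLR2 and PLA2G4A were among the genes that rose. IL1B, the cytokine interleukin 1 beta, stood at 2.91, 2.44 and 2.95 with ID8 and at 1.34, 1.70 and 1.07 with DMSO (log2 1.39 ± 0.202 SE, limma adjusted p = 0.00832). All DMSO values were below 2. TLR2, a receptor for bacterial lipoproteins, stood at 4.18, 3.97 and 4.19 with ID8 and 3.33, 3.46 and 3.04 with DMSO (log2 0.84 ± 0.16, limma adjusted p = 0.0422), and it no longer passed without the DMSO array of experiment 4 (0.67, adjusted p = 0.15). PLA2G4A, the cytosolic phospholipase that releases arachidonic acid, stood at 2.85, 2.84 and 2.92 with ID8 and at 1.56, 1.92 and 1.88 with DMSO (log2 1.08, limma adjusted p = 0.0369). Without that array its adjusted p was 0.069. PTGER4, the EP4 receptor for prostaglandin E2, stood at 4.42, 4.53 and 4.92 with ID8 and at 3.69, 3.32 and 3.49 with DMSO. The groups did not overlap, and the difference of 1.12 ± 0.237 did not pass (limma adjusted p = 0.0639). Of 10 measured genes of prostaglandin E2 synthesis and its receptors 0 passed, with 7 above 0, a median of 0.10 and 2 higher at an unadjusted p under 0.05. Over all genes tested 0.241% passed, 48.3% lay above 0 and 4.88% were higher at such a p.

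SULT1E1, OXT and KRT75 also rose. SULT1E1, the sulfotransferase that inactivates oestrogens, stood at 4.56, 4.28 and 4.57 with ID8 and at 3.00, 3.47 and 2.67 with DMSO, a 2.69-fold difference (log2 1.43 ± 0.203 SE, limma adjusted p = 0.00691). The hormone precursor OXT, which gives oxytocin, stood at 4.28, 4.21 and 4.28 with ID8 and 2.95, 3.05 and 3.16 with DMSO (log2 1.21, limma adjusted p = 0.0422). KRT75, a keratin of hair follicles, stood at 4.81, 4.49 and 4.56 with ID8 and 3.19, 3.44 and 3.36 with DMSO (log2 1.29, limma adjusted p = 0.048). In each of these 3 genes the lowest ID8 array was above the highest DMSO array. AMTN, a secreted protein of the enamel epithelium, rose by 1.69 and IQGAP2, a scaffold protein, by 1.35, both with DMSO means below 2. EDIL3, a secreted protein that binds integrins, rose by 1.04 and ELFN1, a synaptic membrane protein, by 1.03, likewise above DMSO means below 2. IFFO2, a member of the intermediate filament family, rose by 1.54 ± 0.26. Without the DMSO array of experiment 4, KRT75 (adjusted p = 0.11), OXT (0.079), IFFO2 (0.059), EDIL3 (0.075) and ELFN1 (0.15) no longer passed, with differences of 0.94 to 1.59.

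Of the remaining genes that rose, NRCAM, an adhesion molecule of neurons, differed by 0.92, STK38L, the NDR2 kinase, by 0.77, FKBP14, a prolyl isomerase of the endoplasmic reticulum, by 0.76, and EMX2, a homeobox factor, by 0.66. STK38L had 5.00, 5.00 and 5.01 with ID8 and 4.35, 4.28 and 4.07 with DMSO, the tightest set of ID8 values among them. FKBP14 had 6.06, 6.07 and 6.09 with ID8 and 5.35, 5.25 and 5.34 with DMSO (limma adjusted p = 0.0112). TMEM131L rose by 0.66 and the non-coding RNAs SNHG21 and LINC01085 by 0.80 and 0.76. TRIM73 rose by 1.10 on its brighter probe set and stood at -0.22 on a second, dim one. TRIM73 has near-identical copies in the genome, and signal from those copies cannot be told apart from its own. Small RNA loci were RNU5E-4P, which carries the name of a U5 spliceosomal RNA copy, at 1.82 (limma adjusted p = 0.0914 with a random block), and the nucleolar RNA SNORA71A, which has close relatives, at 1.02.

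DKK1, EGR1 and PTPN22 were among the genes that fell. DKK1, a secreted antagonist of Wnt receptors, stood at 2.12, 2.40 and 1.99 with ID8 and at 3.40, 3.11 and 3.49 with DMSO. The highest ID8 array was below the lowest DMSO array, a difference of -1.16 ± 0.164 (SE, n = 3, limma adjusted p = 0.00691). With the experiment as a random block the adjusted p was 0.202. EGR1, an immediate early transcription factor of growth signalling, stood at 2.73, 3.20 and 2.92 with ID8 and at 4.21, 3.78 and 4.04 with DMSO (log2 -1.06 ± 0.21, limma adjusted p = 0.0497). EGR1 passed only just, and it did not pass in any fit that left out 1 of the 6 compared arrays or 1 experiment, nor with a random block (adjusted p = 0.113). PTPN22, a tyrosine phosphatase of lymphocyte signalling, stood at 1.83, 1.71 and 1.86 with ID8 and at 3.40, 2.85 and 3.69 with DMSO (log2 -1.51 ± 0.297, limma adjusted p = 0.0485; without the DMSO array of experiment 4, -1.28, adjusted p = 0.16). IL31RA, a subunit of the interleukin 31 receptor, fell by 0.99 and also had an ID8 mean below 2. RNF11, a RING finger ubiquitin ligase, fell by 0.72 and CABLES1, an adaptor of cyclin-dependent kinases, by 0.80.

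ADGRF5, ADGRE5, ALCAM and FSTL1 fell as well. The adhesion receptors ADGRF5 and ADGRE5, the second also known as CD97, fell by 1.08 and 0.90. ADGRF5 had 3.56, 3.73 and 3.79 with ID8 and 4.91, 4.76 and 4.65 with DMSO (limma adjusted p = 0.0112). ALCAM, an adhesion molecule also listed as a marker of breast cancer stem cells, had 4.02, 4.05 and 4.14 with ID8 and 4.80, 4.88 and 4.69 with DMSO (log2 -0.72 ± 0.124 SE, limma adjusted p = 0.0261). The values of each group lay within 0.2 of each other for ALCAM. FSTL1, a secreted glycoprotein of the follistatin family, had 4.70, 4.73 and 4.86 with ID8 and 5.59, 5.55 and 5.53 with DMSO (log2 -0.80 ± 0.122, limma adjusted p = 0.0112). The guidance cues NTN4, a netrin, and SEMA3C, a semaphorin, fell by 0.90 and 0.60. SEMA3C was the brighter, at 6.89, 6.88 and 6.95 with ID8 and 7.60, 7.46 and 7.48 with DMSO. EMP3, a membrane protein of the PMP22 family, fell by 1.00 and HSPG2, the basement membrane proteoglycan perlecan, by 0.57.

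MYPN and GDA had their ID8 values in the dim range. MYPN, a sarcomere protein that binds actinin, stood at 1.82, 1.71 and 1.92 with ID8 and 3.25, 3.20 and 3.06 with DMSO (log2 -1.35 ± 0.176 SE, limma adjusted p = 0.00518; with a random block, 0.156). GDA, which deaminates guanine, stood at 1.26, 1.35 and 1.23 with ID8 and at 2.61, 3.31 and 2.22 with DMSO (log2 -1.44 ± 0.28, limma adjusted p = 0.048). In both genes all ID8 arrays were below 2. MOXD1, a copper monooxygenase, fell by 1.17 with an ID8 mean of 1.39. TRAM2, a translocation protein of the endoplasmic reticulum with a role in collagen synthesis, fell by 0.96, YIPF2, a Golgi membrane protein, by 0.96, and UAP1, which makes UDP-N-acetylglucosamine, by 0.59. AOX1, the aldehyde oxidase, had 3.60, 3.56 and 3.59 with ID8 and 4.20, 4.35 and 4.32 with DMSO (log2 -0.70, limma adjusted p = 0.0381). The linker histone H1-10 fell by 0.66 and SMG9, a factor of nonsense-mediated decay, by 0.69. SYNE2, the nuclear envelope protein nesprin-2, fell by 0.79 on its bright probe set and stood at -0.04 on a dim one. C19orf33 fell by 0.76 and FAM8A1 by 0.74.

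In 5 called genes both groups had means below 2: LINC01085, which rose, and MGLL, CCL24, RN5S49 and ZNF222, which fell. MGLL, the lipase of monoacylglycerols, had 0.88, 0.84 and 0.86 with ID8 and 1.78, 1.69 and 1.79 with DMSO (log2 -0.89, limma adjusted p = 0.00573). The chemokine CCL24 differed by -0.80, the zinc finger gene ZNF222 by -1.04, and RN5S49, named for a 5S ribosomal RNA copy, by -0.95. These are differences between dim signals on an array.

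The genes of the gate and of the reported drug targets did not pass. Over all genes tested 0.241% passed by limma and 10.3% had an unadjusted p under 0.05. ALDH1A1 differed by 0.21 ± 0.171 (SE, n = 3, limma adjusted p = 0.744), and its ID8 and DMSO arrays overlapped. ALDH1A3 had 2.20, 2.08 and 1.87 with ID8 and 2.19, 2.39 and 1.98 with DMSO (log2 -0.14 ± 0.203, limma adjusted p = 0.874). Of 14 other measured aldehyde dehydrogenases 0 passed and 1 had an unadjusted p under 0.05, where ALDH1B1 stood highest at 0.35 and ALDH3B1 lowest at -0.32. Both groups were gated on this activity, so these levels describe the sorted cells, not the number of Aldefluor+ cells in a culture. Of 11 measured DYRK, CLK and related kinases 0 passed and 1 had an unadjusted p under 0.05. DYRK1A differed by 0.00 ± 0.128, from means of 5.70 in both groups, DYRK2 by 0.35 ± 0.207 and DYRK1B by -0.05 ± 0.264. DYRK3 (0.19) and DYRK4 (0.03) had means below 2.

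The gene lists below are described by their members' counts, beside the same over all genes tested. Of all genes 48.3% lay above 0 with a median of -0.01, and 0.241% were called. The lists are short beside that share and were chosen with earlier results of these data known. A count of called members is therefore not read as a result about a pathway. In the list of smooth muscle contractile genes, 1 of 17 measured members rose, MYL9, and the median was 0.08 (0.02 without the DMSO array of experiment 4). TAGLN, the actin-binding transgelin, had 3.13, 3.02 and 3.37 with ID8 and 2.56, 2.30 and 1.93 with DMSO, a difference of 0.91 ± 0.237 that did not pass (SE, limma adjusted p = 0.155). ACTA2, smooth muscle actin, differed by 0.69 and TPM1, a tropomyosin, by 0.60, and neither passed. Of 23 targets of the coactivators YAP and TAZ 0 passed by limma, with 8 above 0 and a median of -0.15. At an unadjusted p under 0.05 there were 3 higher and 4 lower, where 10.3% of all genes had such a p (4.88% higher, 5.43% lower). Their members went both ways: TGFB2 stood at 1.05, F3, the coagulation initiator tissue factor, at 0.95, ANKRD1 at 0.69 and the receptor kinase AXL at -0.79. Without the DMSO array of experiment 4, 5 of 23 lay above 0 and the median was -0.26.

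Of 24 measured immediate early genes 1 fell, EGR1, and 0 rose, with 18 below 0 and a median of -0.19. Without the DMSO array of experiment 4, 0 passed by limma and the median was -0.29. FOSB, a subunit of the AP-1 factor, had 4.54, 3.67 and 4.08 with ID8 and 2.92, 2.81 and 3.54 with DMSO. It stood opposite to EGR1, at 1.01 ± 0.293, and did not pass (SE, limma adjusted p = 0.203). FOSL1 and IER3 stood at -0.51 and -0.50. Of 24 Wnt pathway regulators 1 fell, DKK1, and the median was -0.07 (-0.0046 without that array). Of 24 members of the TGF-beta list 1 fell, FSTL1, with 15 above 0 and a median of 0.04, and the co-receptor TGFBR3 stood at -0.68. Without that array 11 lay above 0 and the median was -0.01. Of 28 inflammatory cytokines and acute phase genes 1 rose, IL1B, with 17 above 0 and a median of 0.21. The cytokine LIF stood at 0.72, CCL20 at 0.49 and CSF3 at -0.57. Without the DMSO array of experiment 4 the median of this list was 0.06.

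Genes of mitosis and of the amino acid response lay mostly below 0, and no member passed. Of 31 measured genes of G2/M and mitosis 27 lay below 0, with a median of -0.16. At an unadjusted p under 0.05, 6 were lower and 0 higher, where 5.43% of all genes were lower and 4.88% higher. The kinesin KIF20A stood at -0.46 ± 0.124 (SE, limma adjusted p = 0.16), KIF2C at -0.44 and the mitotic kinase PLK1 at -0.41. Without the DMSO array of experiment 4 the count was again 27 and the median -0.17. Genes of DNA replication were on both sides, with 18 of 32 above 0 and a median of 0.03. Of 29 measured targets of ATF4, the factor of the amino acid response, 22 lay below 0, with a median of -0.21. An unadjusted p under 0.05 was seen for 9, all lower, where 5.43% of all genes were lower at such a p. TRIB3, a pseudokinase, stood at -0.98 ± 0.262, CHAC1, which degrades glutathione, at -0.96 and NUPR1 at -0.83. None of the 3 passed (limma adjusted p = 0.15, 0.18 and 0.16), and without that array the median was -0.32. Of 24 amino acid transporters 19 lay below 0, with a median of -0.13 (-0.30 without that array) and SLC7A5, the large neutral amino acid transporter LAT1, at -0.65. In Aldefluor- cells, 25 of the 31 mitotic genes, 20 of the 29 ATF4 targets and 13 of the 24 transporters lay below 0. Over all 22395 genes, 11694 did so there.

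Of the 43 lists, 34 had 0 members past the threshold by limma, where 0.241% of all genes tested passed. Of 18 matricellular genes EDIL3 rose and FSTL1 fell, of 28 axon guidance genes NTN4 and SEMA3C fell, and of 19 breast cancer stem cell markers ALCAM fell. The stem cell markers lay on both sides, with 9 above 0, 10 below 0 and a median of -0.02. Over all genes tested the median was -0.01. CD24 and CD44, the pair of surface proteins used with Aldefluor to sort such cells, stood at -0.47 ± 0.135 and -0.42 ± 0.124 (SE), and neither passed (limma adjusted p = 0.19 and 0.21). Of 26 interferon-stimulated genes 19 lay below 0 and 0 passed, with IFI44L at 1.04 and SAMD9 at -0.76. Of 19 NRF2 targets 14 lay below 0 and 0 passed, with a median of -0.16 (-0.26 without the DMSO array of experiment 4), the exporter ABCC2 at -0.92 and the reductase AKR1C1 at 0.71. In the lists of cholesterol synthesis, p53 targets, apoptosis regulators, Notch, collagens, integrins and laminins, keratins, respiratory chain subunits, retinoic acid response and regulators of epithelial-mesenchymal transition 0 members passed. EGFR, the receptor of epidermal growth factor, came near, at 5.22, 5.14 and 5.25 with ID8 and 5.90, 5.70 and 5.68 with DMSO (log2 -0.55 ± 0.111, limma adjusted p = 0.054). ADAMTS1, a secreted protease, did so in the other direction, at 0.97 ± 0.197 (limma adjusted p = 0.056).

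The response of Aldefluor+ cells was next set against that of Aldefluor- cells sorted from the same experiments, which shares no arrays with it. Of the 24 genes that rose in Aldefluor+ cells, 21 also lay above 0 in Aldefluor- cells, where their median was 0.75. Of the 30 that fell, 26 lay below 0 there, with a median of -0.37. Both make 47 of 54, where 53.9% of all genes had the same sign. Over all genes the effects correlated at r = 0.15, a description across genes measured on one platform and adjusted together. OXT, TRIM73 and SNHG21 were among those that rose in Aldefluor+ cells and stood near or below 0 in Aldefluor- cells, at -0.22, -0.05 and -0.13. GDA, with -1.44 in Aldefluor+ cells, stood at 0.05 in Aldefluor- cells, but the difference between the effects did not pass (-1.48, limma adjusted p = 0.51).

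**Figure D2:**
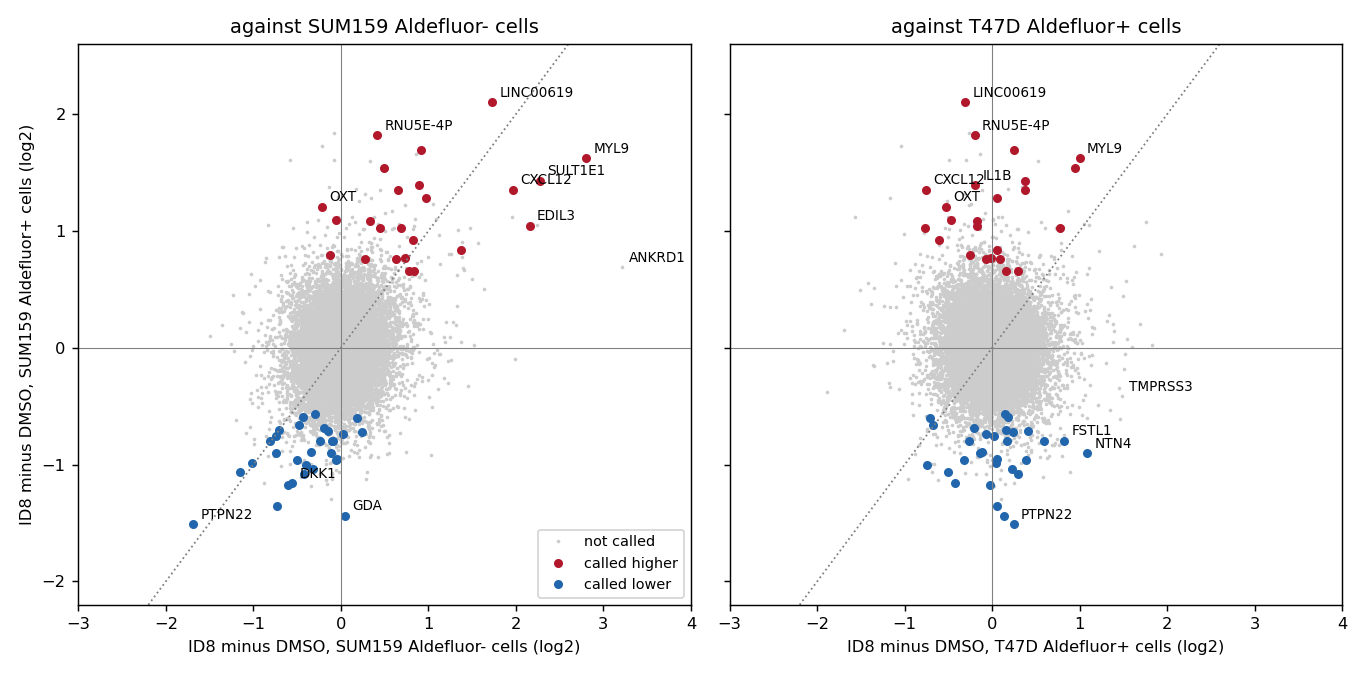
Difference between ID8 and DMSO (log2) in SUM159 Aldefluor+ cells (y axis) against the same difference in SUM159 Aldefluor- cells (x axis, left) and in T47D Aldefluor+ cells (x axis, right), with 1 point per gene, genes called in SUM159 Aldefluor+ cells in red (higher) and blue (lower), and equal values on the dotted line. On the left 47 of the 54 called genes share their sign, and on the right 23 of 54 do.

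A direct test of this difference called 1 gene, ANKRD1 (0.00447% of those tested), with 1582 genes at an unadjusted p under 0.05. ANKRD1, an ankyrin-repeat cofactor of muscle and a classic target of YAP, stood at 4.03, 4.36 and 4.62 in Aldefluor+ cells with ID8 and at 3.63, 3.83 and 3.49 with DMSO. In Aldefluor- cells it stood at 4.64, 4.92 and 4.79 with ID8 and at 1.58, 1.61 and 1.53 with DMSO. With ID8 the Aldefluor- arrays lay just above the Aldefluor+ arrays, and with DMSO they lay far below them, under 2. The effect of ID8 was 0.69 ± 0.187 in Aldefluor+ cells and 3.21 ± 0.187 in Aldefluor- cells, a difference of -2.52 ± 0.264 (SE, limma adjusted p = 0.00121). With the experiment as a random block no gene passed this test, with 1578 at an unadjusted p under 0.05, and none passed without experiment 2 or without experiment 3 (1246 and 1361 at an unadjusted p under 0.05).

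Other genes had a smaller effect in Aldefluor+ than in Aldefluor- cells without passing that test. MYL9 had 7.44, 7.58 and 7.43 in Aldefluor- cells with ID8, level with the Aldefluor+ cells, and 5.00, 4.57 and 4.47 with DMSO. Its effect was 1.62 in Aldefluor+ and 2.80 in Aldefluor- cells, and the difference of -1.18 ± 0.245 had an adjusted p of 0.237 by limma. TGFB2, a transforming growth factor ligand, had 5.21, 5.29 and 5.39 with ID8 and 4.32, 4.16 and 4.24 with DMSO in Aldefluor+ cells. In Aldefluor- cells it had 6.58, 6.66 and 6.79 with ID8 and 4.55, 4.52 and 4.24 with DMSO. The groups did not overlap in either fraction, with an effect of 1.05 ± 0.244 in Aldefluor+ cells (limma adjusted p = 0.102) and 2.24 ± 0.244 in Aldefluor- cells (0.00034). EDIL3 had an effect of 1.04 in Aldefluor+ and 2.16 in Aldefluor- cells, SULT1E1 one of 1.43 in Aldefluor+ and 2.27 in Aldefluor- cells, and CXCL12 one of 1.35 in Aldefluor+ and 1.97 in Aldefluor- cells. None of these differences passed (limma adjusted p = 0.347 for EDIL3, 0.593 for SULT1E1 and 0.62 for CXCL12). DKK1 went the other way in size, with -1.16 in Aldefluor+ and -0.55 in Aldefluor- cells, and did not pass either (limma adjusted p = 0.637).

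**Figure D3:**
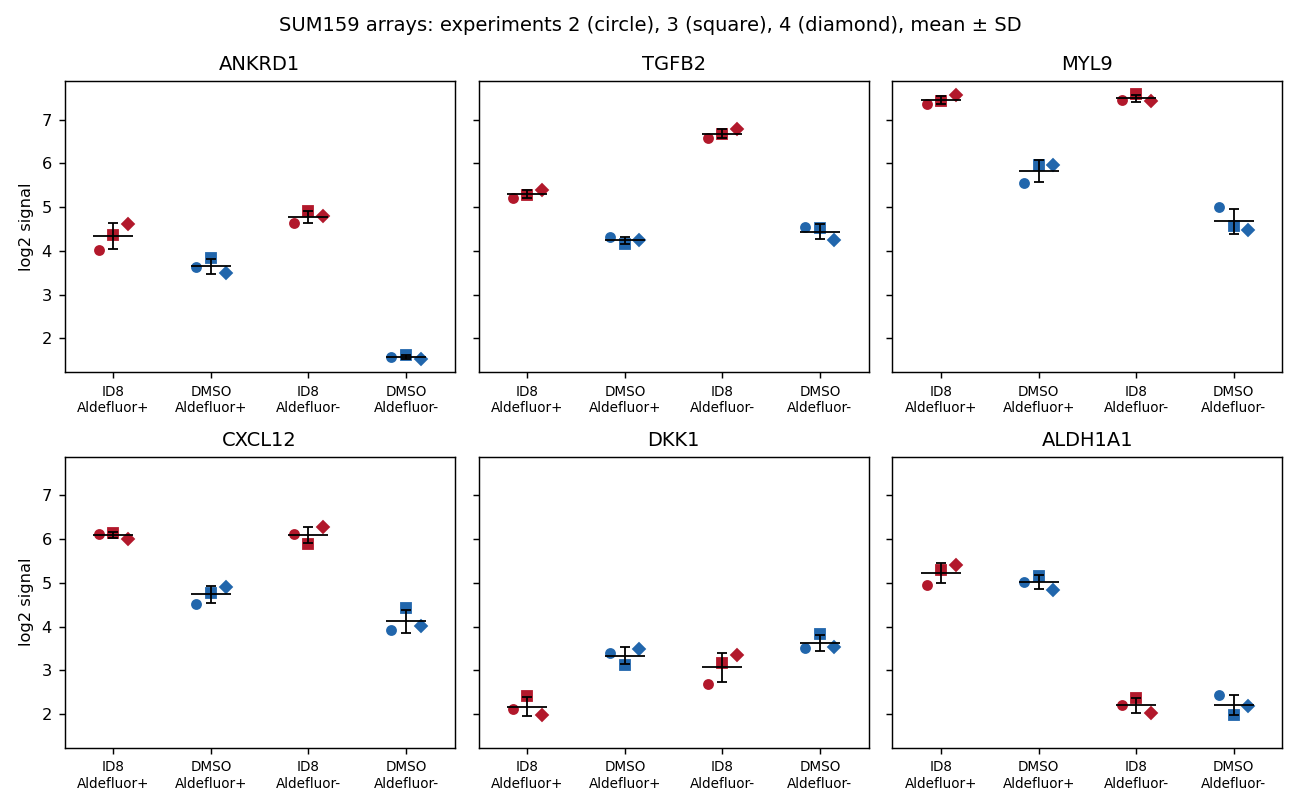
Log2 signal (y axis) of 6 genes on the 12 SUM159 arrays by group (x axis), with ID8 in red, DMSO in blue, 1 marker per experiment and the mean ± SD in black. ANKRD1 is below 2 in Aldefluor- cells with DMSO alone, and ALDH1A1 is above 4.8 in Aldefluor+ cells and below 2.5 in Aldefluor- cells with either treatment.

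Sequences upstream of ANKRD1, EGR1 and DKK1 are shown. ANKRD1 was the gene called between fractions, and EGR1 and DKK1 were the called members of the immediate early and Wnt lists. Other lists also had called members, among them MYL9 and IL1B, whose upstream sequences are not shown. The choice was made with results of these data known. The sequences shown are the 250 bases before the RefSeq start (GRCh38.p14), for ANKRD1 at chr10:90921088-90921337 on the minus strand, for EGR1 at chr5:138465229-138465478 and for DKK1 at chr10:52314031-52314280 on the plus strand. Capitals mark GGAATG, the motif of TEAD factors, TGANTCA, that of AP-1, GCGNGGGCG, that of EGR factors, and the CArG box bound by serum response factor, each searched on both strands.
ANKRD1: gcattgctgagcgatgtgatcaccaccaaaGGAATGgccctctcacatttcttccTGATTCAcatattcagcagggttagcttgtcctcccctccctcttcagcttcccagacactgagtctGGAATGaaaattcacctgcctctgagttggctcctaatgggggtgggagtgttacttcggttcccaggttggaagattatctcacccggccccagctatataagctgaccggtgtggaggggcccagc
EGR1: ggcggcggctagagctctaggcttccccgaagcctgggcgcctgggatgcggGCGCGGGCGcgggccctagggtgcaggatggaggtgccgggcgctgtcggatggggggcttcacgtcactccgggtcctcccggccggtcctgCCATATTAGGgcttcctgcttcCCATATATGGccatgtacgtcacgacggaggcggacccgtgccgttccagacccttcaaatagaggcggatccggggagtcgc
DKK1: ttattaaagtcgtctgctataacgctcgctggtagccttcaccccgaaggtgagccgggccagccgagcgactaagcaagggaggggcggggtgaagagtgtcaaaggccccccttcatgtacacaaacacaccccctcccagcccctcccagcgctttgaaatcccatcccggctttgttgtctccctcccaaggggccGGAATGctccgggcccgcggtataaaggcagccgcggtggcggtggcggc
ANKRD1 holds 2 TEAD motifs and 1 AP-1 motif, EGR1 holds 2 CArG boxes and 1 EGR motif, and DKK1 holds 1 TEAD motif. No match overlaps another. Promoters were at hand for 44 of the 54 called genes, 19 higher and 25 lower. A CArG box was in 0 of 19 and 1 of 25, against 1.17% of the 15489 tested genes with a promoter and 1.14% of all RefSeq promoters in the table. The TEAD motif was in 2 of 19 and 3 of 25 (10.2% of tested genes, 11.9% of all), the AP-1 motif in 0 of 19 and 3 of 25 (5.37% and 6.60%), and the EGR motif in 3 of 19 and 4 of 25 (11.2% and 8.25%). These matches describe the letters in the window and nothing beyond.

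In T47D Aldefluor+ cells the same dose had a different effect on a small set of genes. The lines came from separate experiments, so line and experiment cannot be told apart. Of the 54 genes called in SUM159 Aldefluor+ cells, 23 had the same sign in T47D Aldefluor+ cells, where 48.9% of all genes did, and the effects correlated at r = -0.04 over all genes. The difference between the lines passed for 74 genes (0.33%), with 30 higher (0.134%) and 44 lower (0.196%) effects in SUM159 and 2532 genes at an unadjusted p under 0.05. With 1 array or 1 experiment left out, 15 to 83 genes passed between the lines, and 582 did in the fit without the experiment block. MYL9 did not pass between the lines: its effect was 1.62 in SUM159 and 1.00 ± 0.173 in T47D (SE, limma adjusted p = 0.0219 in T47D), with a difference of 0.62 ± 0.245 (adjusted p = 0.332).

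CXCL12 had effects of opposite sign in the lines. In T47D Aldefluor+ cells it stood at 4.76, 4.73 and 5.04 with ID8 and at 5.58, 5.89 and 5.35 with DMSO (experiments 5, 6 and 7), an effect of -0.76 ± 0.163 (SE, limma adjusted p = 0.0575). Against the 1.35 of SUM159 this made a difference of 2.11 ± 0.231 (limma adjusted p = 0.00108). NTN4 gave the mirror image: it stood at 6.38, 6.00 and 6.12 with ID8 and 4.98, 5.10 and 5.16 with DMSO in T47D Aldefluor+ cells, an effect of 1.09. With -0.90 in SUM159 the difference was -1.99 ± 0.225 (limma adjusted p = 0.00116). FSTL1 did likewise, at 5.79, 5.71 and 5.59 with ID8 and 4.70, 4.80 and 5.14 with DMSO in T47D, with a difference between the effects of -1.62 ± 0.172 (limma adjusted p = 0.00108).

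Among the 6 highest and 6 lowest differences between the lines, several had no call in SUM159 itself. KLHL24, a substrate adaptor of a ubiquitin ligase, differed by -1.69 between the lines, with an effect of -0.49 in SUM159 and 1.21 in T47D. RGS2, which limits G protein signalling, differed by -1.72, EFNB2, an ephrin ligand, by -1.68 and TMPRSS3, a membrane serine protease, by -1.90. LINC00619 differed by 2.41 ± 0.306 (SE, limma adjusted p = 0.00243), with an effect of -0.31 in T47D. Small RNA loci made up the rest, RNU5E-4P (2.02), RNU1-14P (1.98), SCARNA10 (1.84) and MIR4279 (2.46). MIR4279 stood at 2.30, 2.26 and 2.79 with ID8 and 1.38, 0.78 and 1.33 with DMSO in SUM159 Aldefluor+ cells, a difference of 1.28 ± 0.333 that did not pass (limma adjusted p = 0.154). Its locus is in chr5:31936112-31936127 on the minus strand (GRCh38.p14, RefSeq), and the mature sequence, with the seed of bases 2 to 8 in capitals, is given for identity.
hsa-miR-4279: cUCUCCUCccggcuuc
A probe set on such a locus need not measure the mature small RNA.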

How the data were processed

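Expression was measured on 24 Affymetrix Human Gene ST 2.1 arrays of sorted cells. The deposited values are log2 signals, made by the authors with robust multiarray averaging (RMA) and adjusted for experimental and processing batch with ComBat, per the labels and the submitters' processing notes; versions of these tools and the batches used in ComBat: not given in the sources used here. Whether it reduced differences within a line was not tested. Of 53617 probe sets, 23871 had 1 gene symbol in the platform table, 1842 several and 27904 none. Symbols were updated by gene number to RefSeq GRCh38.p14 for 22569 probe sets. For 632 genes with several probe sets the brightest was used, which left 22395 genes, 49.0% of them with a mean below 2.

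The test was limma 3.58.1 (R 4.3.3; lmFit, eBayes). All 24 arrays entered 1 model, with a mean for each of the 8 groups and a fixed block for each experiment. Genes were called under a Benjamini-Hochberg adjusted p of 0.05, taken over all genes. The labels state that a number marks 1 experiment, so the numbers pair the arrays. Deviations from group means correlated between -0.35 and -0.41 for ID8 and DMSO arrays of the same number and between 0.0986 and 0.244 for different numbers; the cause was not tested. P-values rest on the spread left after the experiment block, pooled over all 8 groups of both lines and not taken from the 6 compared arrays alone. Precision is limited by having 3 arrays a group. The scripts were tested on simulated data. Genes were named by rule: the 15 highest and 15 lowest called with the same sign in all 3 experiments, the 6 highest and 6 lowest for each difference of effects, list members that were called or else the 4 largest, ALDH1A1, ALDH1A3 and the DYRK kinases. Other called genes were named after their values were seen. The genes and lists were chosen with earlier results of these data known. Promoters and the microRNA came from RefSeq tables.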

Additional observations from a re-analysis of the deposited data

Results flagged for a closer look

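The difference of the ID8 effect between Aldefluor+ and Aldefluor- SUM159 cells passed for 1 gene by limma, ANKRD1, at -2.52. The difference of the effect between SUM159 and T47D Aldefluor+ cells passed for 74 genes. Those named with a larger effect in SUM159 were MIR4279 (2.46), LINC00619 (2.41), CXCL12 (2.11), RNU5E-4P (2.02), RNU1-14P (1.98), SCARNA10 (1.84), OXT (1.73), IL1B (1.59) and TRIM73 (1.57). Those named with a lower one were NTN4 (-1.99), TMPRSS3 (-1.90), RGS2 (-1.72), KLHL24 (-1.69), EFNB2 (-1.68), FSTL1 (-1.62), MYPN (-1.41), ADGRF5 (-1.38), YIPF2 (-1.35), ZNF222 (-1.27) and ALCAM (-1.12). Each was a test of the difference itself in the same limma model, in log2 units. The part of the authors' ComBat adjustment in these differences was not tested. A compared SUM159 group had a mean below 2 for ANKRD1, MIR4279, LINC00619, RNU5E-4P, RNU1-14P, IL1B, TMPRSS3, MYPN and ZNF222.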

How the results depend on the processing

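None of the 54 genes called in SUM159 Aldefluor+ cells changed sign under any alternative run. Counts of calls moved, and the cause was not tested unless named. For the ID8 effect in SUM159 Aldefluor+ cells (54 genes by limma), the fit without the replicate block called 397 with all 54 among them. That fit does not allow for the authors' earlier batch adjustment. Dropping dim genes called 118, limma-trend with robust variances 139, array weights 30 and all probe sets 35. SUM159 alone called 17 (11 shared) and the 6 arrays alone 0 (1674 at an unadjusted p under 0.05). The share of higher calls, 44.4% of 54, was 71.4% with all probe sets and 70.6% with SUM159 alone, and quantile normalization, median centring and probe-set means called 50 to 64. Leaving out 1 experiment or 1 compared array gave 3 to 37 calls. The counts were 3, 10 and 13 without experiments 2, 3 and 4, then 8, 14 and 21 without the ID8 arrays and 4, 24 and 37 without the DMSO arrays of those experiments. LINC00619 and MYL9 passed in all 9. With a random block 54 passed, 39 of them shared. For the difference between fractions (1 gene), it was 36 without the replicate block, 0 with a random block, 3 with quantile normalization, 4 without dim genes, 5 with limma-trend, and 0 to 2 with 1 experiment or array left out. For the difference between lines (74 genes), it was 582 without the replicate block, 198 without dim genes, 232 with limma-trend, 49 with all probe sets, and 15 to 83 in leave-outs. Arrays carry no count depth, and differences of genes near or below 2 may be limited by background, whose level in the adjusted values was not tested.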
